A study of Rattus norvegicus with 9 samples.

Results

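The genes described here encode 7 subunits of the GABA A receptor, the chloride channel through which GABA, the main inhibitory transmitter of the adult brain, acts within milliseconds. They are Gabra2, Gabra3, Gabra4, Gabra5, Gabrb1, Gabrb2 and Gabrd, chosen by name as the entries of the deposited expression table with those symbols. They are 7 of the 21138 genes in the table, and all 7 passed the filter on low values. The table holds 9 libraries of rat hippocampal RNA, 3 for each of the groups CK, VD and INS + VD. All rats were male wild-type Sprague-Dawley rats, bought at 6 months of age and sampled on day 56. CK rats had no arterial ligation and received 0.9% saline at 0.5 mL per day. In VD rats both common carotid arteries were ligated, a model of chronic low blood flow to the forebrain in the whole animal rather than of a single lesion, and the same saline was given. INS + VD rats had the same ligation and received insulin through the nose at 1 U/kg per day for 8 weeks. A sham-operated group was part of the study and is not analysed here, so the ligation and the surgery that goes with it cannot be told apart. The study calls the replicates of a group biological replicates, and its division of the tissue points to 3 separate rats per group, although no label ties a library to a rat.

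A GABA A receptor is a ring of subunits around a pore, most often of alpha, beta and gamma subunits. GABA binds between an alpha and a beta subunit. The alpha subunit sets where the receptor sits and how it responds to drugs such as benzodiazepines. Alpha2 is a main subunit of synapses in the forebrain and of the axon initial segment of pyramidal cells. Alpha5 is abundant in the hippocampus, where it sits largely outside synapses on the dendrites of pyramidal cells. The delta subunit takes the place of gamma in receptors outside synapses that carry tonic inhibition, joining alpha4 in dentate granule cells and alpha6 in cerebellar granule cells.

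In the deposited table Gabrb1, Gabra4 and Gabra2 lie next to each other on chromosome 14 with Gabrg1. Gabrb2 lies on chromosome 10 in a cluster that also holds Gabra6. Gabra5 lies on chromosome 1 beside Gabrg3, and Gabra3 on chromosome X beside Gabre and Gabrq. Gabrd lies on chromosome 5, apart from Gabrr1 and Gabrr2 on the same chromosome.

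The promoters of 6 of the 7 genes were matched in RefSeq by symbol. The promoters of Gabrb1 and Gabrb2 are shown because these genes had the smallest p-values of the 7, and that of Gabrd because its levels followed an order across the libraries unlike that of the other 6. Each is the 250 bases before the RefSeq start of the gene, 5′ to 3′ on the strand of the gene, in build GRCr8. Gabrb1 is at chr14:36902894-36903143 on the minus strand, Gabrb2 at chr10:27439543-27439792 on the plus strand and Gabrd at chr5:171252710-171252959 on the minus strand. Capitals mark, in the first and second sequence, the palindrome bound by the factor NRF1, which is GCGCA followed at once by its reverse complement TGCGC, and in the third the GC box GGGCGG or its reverse complement CCGCCC.
Gabrb1: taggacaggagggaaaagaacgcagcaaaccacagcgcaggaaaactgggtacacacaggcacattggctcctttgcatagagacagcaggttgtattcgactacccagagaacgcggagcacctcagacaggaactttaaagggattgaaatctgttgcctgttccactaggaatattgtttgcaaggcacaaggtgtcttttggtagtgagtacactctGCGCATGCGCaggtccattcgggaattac
Gabrb2: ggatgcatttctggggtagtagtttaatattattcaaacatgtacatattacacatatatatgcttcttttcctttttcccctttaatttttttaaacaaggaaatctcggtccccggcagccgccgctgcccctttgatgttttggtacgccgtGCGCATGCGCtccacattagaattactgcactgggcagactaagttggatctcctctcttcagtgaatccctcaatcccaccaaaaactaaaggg
Gabrd: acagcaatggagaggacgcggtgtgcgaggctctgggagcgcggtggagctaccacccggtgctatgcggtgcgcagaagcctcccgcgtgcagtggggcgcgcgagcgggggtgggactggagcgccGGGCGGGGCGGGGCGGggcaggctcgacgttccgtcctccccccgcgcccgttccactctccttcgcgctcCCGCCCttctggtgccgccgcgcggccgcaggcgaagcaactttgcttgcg
This palindrome, which reads the same on both strands, begins 29 bases before the start in Gabrb1 and 95 bases before it in Gabrb2. It was in 0.762% of the 33469 rat promoters of this length. The promoters of Gabra3, Gabra4, Gabra5 and Gabrd do not hold it in this window. The Gabrd promoter holds 4 GC boxes, of which 3 overlap by a base, and 30.5% of all promoters hold at least 1 on either strand. Its GC content was 74.0% with 35 CpG, against medians of 51.2% and 5 over all promoters. Gabrb1 and Gabrb2 were near those medians, with 49.2% and 43.2% GC and 8 CpG each. These matches describe letters, and no binding was measured.

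The values are FPKM, a fragment count divided by the length of the transcript and by the mapped total of the library, so that levels of different genes can be set beside each other. Counts are not analysed here, and the study gives its sequencing yield in bases, so the number of reads mapped to genes in each library is not known. Among genes under 1 FPKM in every library, the most frequent ratio to CK replicate 1 placed the relative depth of the other libraries between 0.917 and 1.02 of it. The lowest, of VD replicate 1, is the least certain. Its ratio was shared by 51 of 660 genes, against 195 to 291 genes, of 1644 to 1884, in the rest. Of the 9 libraries 8 had 17441 to 18088 genes above 0, and VD replicate 1 had 14428.

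Markers did not place all libraries in the hippocampus, as their labels do. Lists of 8 dentate granule cell genes and of 8 pyramidal cell genes of CA1 and CA3 summed to 67.2 to 486 FPKM and 121 to 674 FPKM over the 9 libraries, although Dsp of the first and Fibcd1 and Iyd of the second stayed under 1 FPKM in all 9. A list of 8 cerebellar genes summed to 2508 FPKM in CK replicate 3 and to 20.2 to 256 in the others. Brainstem and spinal cord genes, 7 of 8 in the table, summed to 106 FPKM in VD replicate 2 and to at most 7.32 elsewhere. A list of 7 olfactory bulb genes summed to 314 in VD replicate 1 and 610 in VD replicate 3, against 5.93 to 18.7 in 6 libraries. The sum of 133 in INS + VD replicate 2 was mostly Th, at 122 FPKM, while Cdhr1 was at 1.34 FPKM there against 59.2 and 230 in VD replicates 1 and 3. Slc17a7, the vesicular glutamate transporter of forebrain excitatory neurons, was at 0.766 FPKM in INS + VD replicate 2 and 30.4 in VD replicate 2, against 228 to 740 in the other 7. The part of these differences in the results below was not tested, and in bulk tissue fewer cells of a type and less RNA per cell cannot be told apart. Some results are also given without INS + VD replicate 2, VD replicate 2 and CK replicate 3. Others also changed without these libraries and are not listed. This set was chosen after seeing the data, and it leaves in VD only the 2 libraries with the most olfactory bulb signal.

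None of the 7 genes passed an adjusted p of 0.05 in any comparison. VD was set against CK (the ligation comparison, VD vs. CK), INS + VD against VD (the insulin comparison, INS + VD vs. VD) and INS + VD against CK, each as the first group minus the second on the log2 scale. Gabrb2 and Gabrb1, the beta subunits, were lower in all 3 VD libraries than in any CK or INS + VD library. Over all genes tested, 8.27% had every VD library below every CK library, and 7.57% every INS + VD library above every VD library. The share of genes with both was not counted. Gabra2, Gabra3 and Gabra4 had lower means in VD than in either other group, but their VD values overlapped those of CK. Gabra5 had means of 25.1 FPKM in VD and 24.1 FPKM in INS + VD. Gabrd spread 531-fold between its lowest and highest library, with no order by group.

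**Figure D1:**
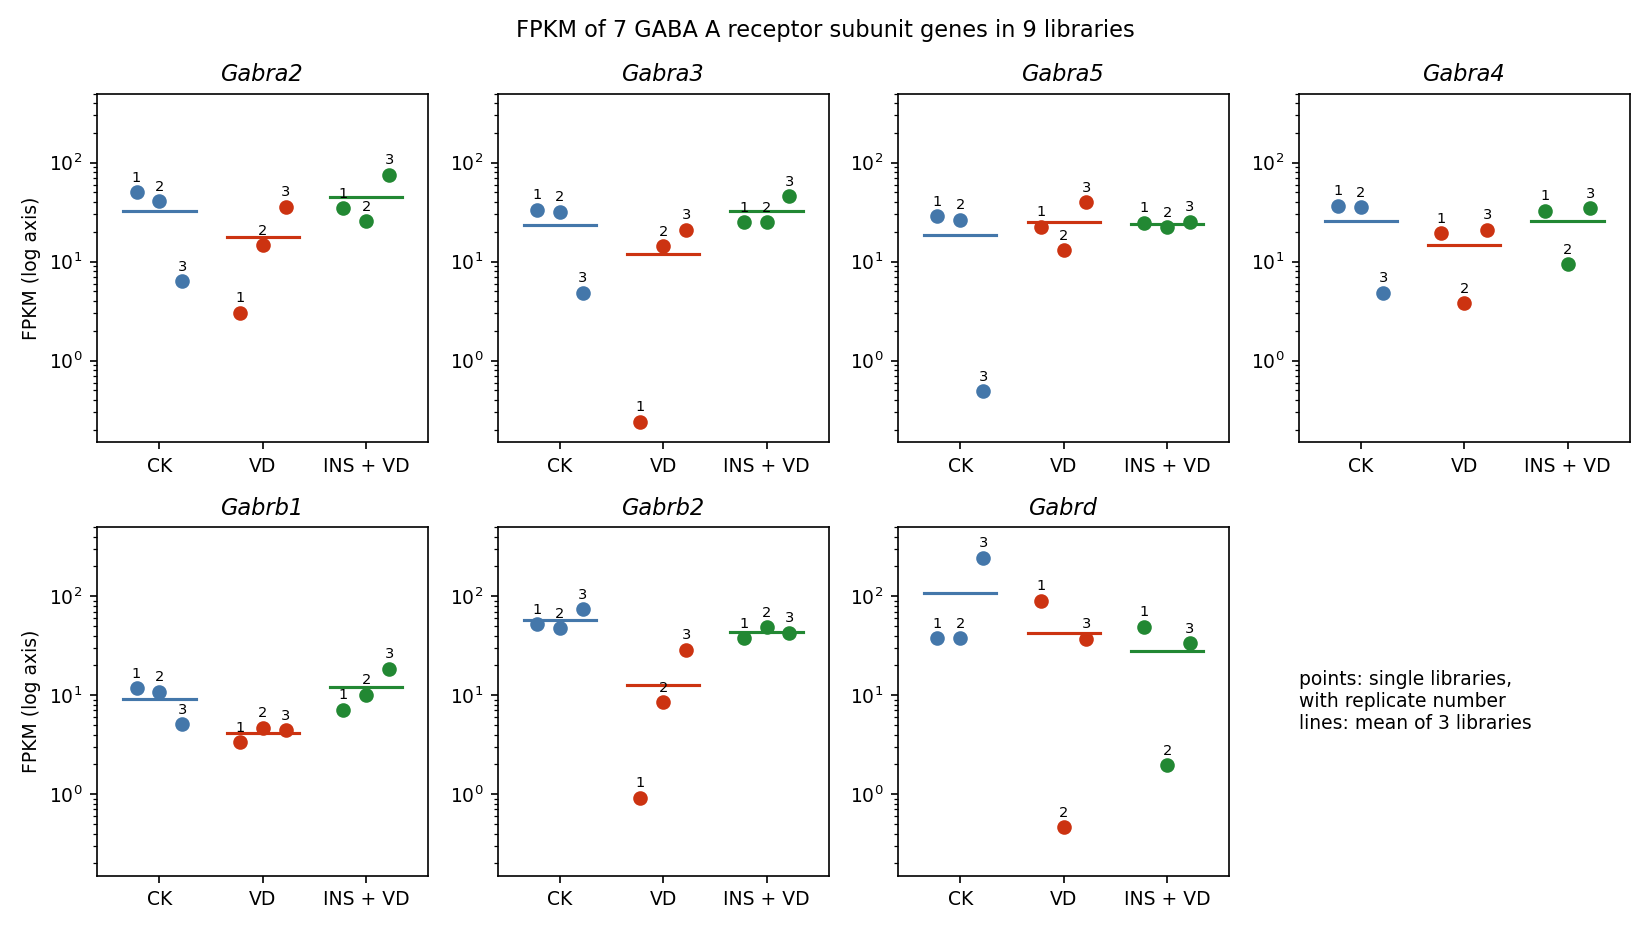
FPKM on a log axis of the 7 subunit genes in the 9 libraries; each point is a library with its replicate number and each line is the mean of the 3 libraries of a group. The VD libraries of Gabrb1 (3.36 to 4.67 FPKM) and Gabrb2 (0.922 to 28.8 FPKM) lie below all CK and INS + VD libraries, CK replicate 3 is the lowest CK library for every alpha gene, and Gabrd runs from 0.462 to 245.2 FPKM.

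Gabrb2 encodes beta2, a beta subunit found in many receptors of the adult brain. It stood at 52.1, 47.5 and 74.1 FPKM in CK replicates 1, 2 and 3. The VD replicates had 0.922, 8.50 and 28.8 FPKM, and the INS + VD replicates 37.6, 48.6 and 42.7 FPKM. The 3 VD libraries were the lowest of the 9, and CK and INS + VD overlapped. Means over CK, VD and INS + VD were 57.9 ± 14.2, 12.7 ± 14.4 and 43.0 ± 5.47 FPKM (SD, n = 3), and means are given in this order below. The log2 fold change of FPKM + 1 was −2.82 for the ligation comparison, with a standard error of 0.80, an unadjusted p of 0.00633 and an adjusted p of 0.252 (limma). For the insulin comparison it was 2.42, with a standard error of 0.80, an unadjusted p of 0.0142 and an adjusted p of 0.512 (limma). Both comparisons use the same VD libraries, so the second is not independent of the first.

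The size of the Gabrb2 difference depended on which VD libraries were used. Without VD replicate 1, the lowest, the log2 fold change was −1.78 for the ligation comparison and 1.38 for the insulin comparison, and without VD replicate 3, the highest, it was −3.76 and 3.36. Without INS + VD replicate 2, VD replicate 2 and CK replicate 3 it was −2.75 and 2.44, and the unadjusted limma p rose to 0.0689 and 0.0961. The value in CK replicate 3 was the highest of all, in the library with the cerebellar genes, and without it the difference from CK was −2.64.

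Gabrb1 encodes beta1, the least abundant of the 7 by group mean in each group. Its CK libraries held 11.8, 10.8 and 5.08 FPKM. The VD libraries had 3.36, 4.67 and 4.41 FPKM, and those given insulin 7.15, 10.1 and 18.6 FPKM. The VD libraries were again the lowest 3 of the 9, with CK replicate 3 just above them. Means were 9.22 ± 3.61, 4.15 ± 0.695 and 11.9 ± 5.92 FPKM (SD, n = 3). Its SD in VD was the smallest of the 7 genes. The log2 fold change was −0.93 for the ligation comparison (standard error 0.42, unadjusted p of 0.0529, adjusted p of 0.394, limma). For the insulin comparison it was 1.24 (standard error 0.42, unadjusted p of 0.0151, adjusted p of 0.512, limma). Without CK replicate 3 the difference from CK was −1.26 with an unadjusted limma p of 0.0144, and without the 3 libraries named above it was −1.34 with a p of 0.0377. Without INS + VD replicate 3, its highest library, the difference between INS + VD and VD was 0.90 with a p of 0.0685.

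Gabra2 encodes alpha2. In CK the level was 50.2, 40.8 and 6.34 FPKM. It was 3.04, 14.6 and 35.8 FPKM with ligation alone, and 34.7, 25.7 and 75.4 FPKM with insulin. CK replicate 3 fell among the VD values, and VD replicate 3 among the INS + VD values. Means were 32.4 ± 23.1, 17.8 ± 16.6 and 45.3 ± 26.4 FPKM (SD, n = 3). On the log2 scale the difference was −0.92 for the ligation comparison (adjusted p of 0.633, limma) and 1.66 for the insulin comparison (adjusted p of 0.514, limma). Without VD replicate 1 these became −0.061 and 0.80. Without CK replicate 3 the first was −1.80, so the size of the difference from CK depended on both libraries.

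Gabra3 encodes alpha3, known best from monoaminergic nuclei and the reticular thalamus. The values in CK were 33.5, 31.8 and 4.85 FPKM. Those in VD were 0.241, 14.3 and 21.1 FPKM, followed by 25.2, 25.1 and 46.1 FPKM with insulin. Every INS + VD library was above every VD library, whereas CK replicate 3 lay within VD. Means were 23.4 ± 16.1, 11.9 ± 10.6 and 32.1 ± 12.1 FPKM (SD, n = 3). In limma the log2 fold change was −1.33 for the ligation comparison (adjusted p of 0.561, limma) and 2.09 for the insulin comparison (unadjusted p of 0.082, adjusted p of 0.512, limma). Without VD replicate 1, where it was 192-fold below its highest library, these became −0.030 and 0.79. Without CK replicate 3 the first was −2.17.

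Gabra4 encodes alpha4, the partner of delta in the dentate gyrus. CK replicates 1, 2 and 3 had 36.7, 35.5 and 4.87 FPKM. The VD replicates had 19.4, 3.79 and 21.1 FPKM, and the INS + VD replicates 32.6, 9.37 and 34.6 FPKM. Each group held 1 library under 10 FPKM, and these were INS + VD replicate 2, VD replicate 2 and CK replicate 3. Means were 25.7 ± 18.0, 14.8 ± 9.53 and 25.5 ± 14.0 FPKM (SD, n = 3). Fold changes on the log2 scale were −0.64 for the ligation comparison (adjusted p of 0.726, limma) and 0.84 for the insulin comparison (adjusted p of 0.678, limma). Without those 3 libraries, the lowest of each group, the values were −0.81 and 0.70. Without VD replicate 2 alone the difference from CK was 0.081, and without CK replicate 3 alone it was −1.52.

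Gabra5 encodes alpha5. Its CK libraries held 28.9, 26.6 and 0.491 FPKM. The VD libraries had 22.6, 13.1 and 39.6 FPKM, and those given insulin 24.7, 22.3 and 25.2 FPKM. CK replicate 3 stood apart, and the other 8 libraries lay between 13.1 and 39.6 FPKM. Means were 18.7 ± 15.8, 25.1 ± 13.4 and 24.1 ± 1.58 FPKM (SD, n = 3). Its log2 fold change was 1.15 for the ligation comparison (adjusted p of 0.589, limma) and 0.073 for the insulin comparison (adjusted p of 0.981, limma). Without CK replicate 3 the first was −0.27, so its direction rested on that library. The second was −0.090 with the libraries centred on their medians.

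Gabrd encodes delta. In CK the level was 37.8, 37.5 and 245.2 FPKM. It was 90.0, 0.462 and 37.1 FPKM with ligation alone, and 49.2, 1.95 and 33.4 FPKM with insulin. CK replicate 3 was the highest and VD replicate 2 and INS + VD replicate 2 were the lowest, a ratio of 531 between the ends. Means were 107 ± 120, 42.5 ± 45.0 and 28.2 ± 24.1 FPKM (SD, n = 3). Gabra6, the cerebellar granule cell partner of delta, was at 501 FPKM in CK replicate 3 and at most 0.884 FPKM in the other 8 libraries. The log2 fold change of Gabrd was −2.06 for the ligation comparison (standard error 1.60, adjusted p of 0.55, limma) and 0.0022 for the insulin comparison (adjusted p of 0.9998, limma). Without INS + VD replicate 2, VD replicate 2 and CK replicate 3 these became 0.61 and −0.50.

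**Figure D2:**
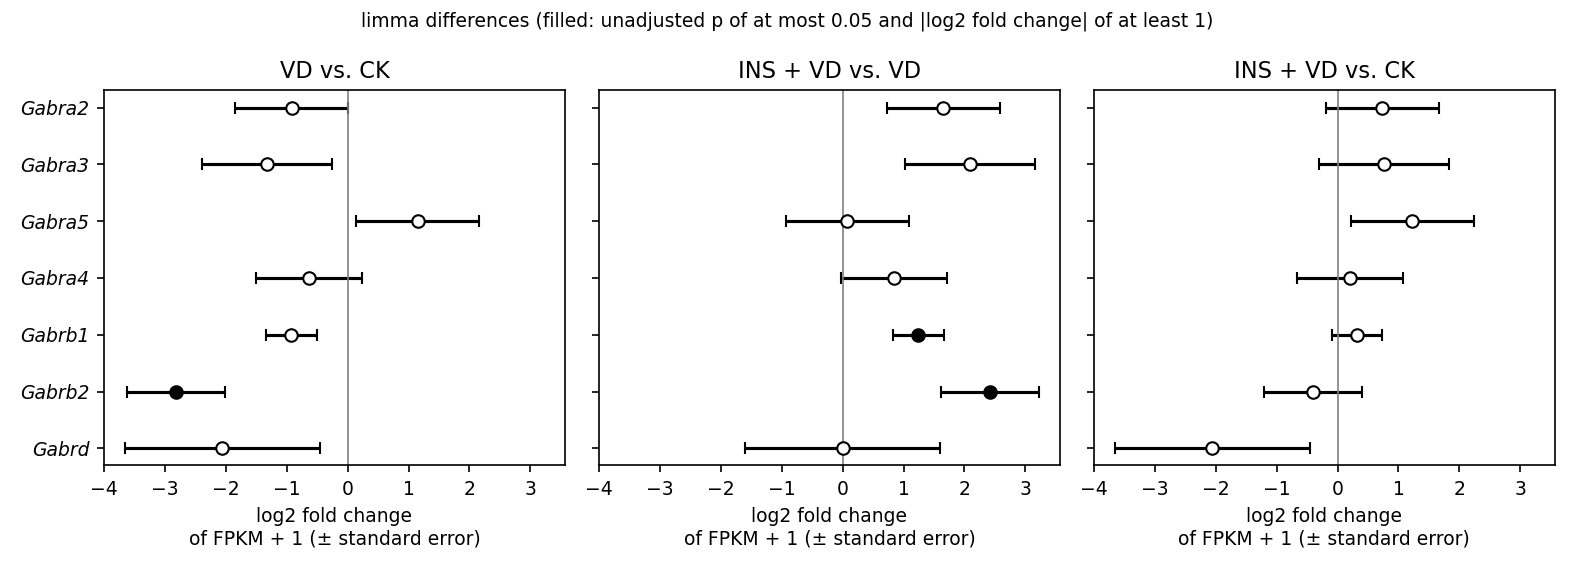
log2 fold changes of FPKM + 1 from limma for the 7 subunit genes in the 3 comparisons, as points with bars of 1 standard error; filled points pass an unadjusted p of 0.05 and a log2 fold change of 1 in either direction. Gabrb2 is filled for the ligation comparison (−2.82) and for the insulin comparison (2.42), Gabrb1 for the insulin comparison (1.24), and no gene is filled for INS + VD vs. CK.

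By the unadjusted rule, which takes an unadjusted p of up to 0.05 together with a log2 fold change of 1 or more in either direction, 1 of the 7 genes was lower for the ligation comparison (Gabrb2), where 4.89% of the 15099 genes tested were lower, 3.89% higher and 8.78% either. For the insulin comparison 2 of the 7 were higher (Gabrb1 and Gabrb2), where 3.64% of all genes were higher, 2.54% lower and 6.17% either. For INS + VD vs. CK 0 of the 7 passed, where 0.940% of all genes did. None of the 15099 genes (0.00%) passed the adjusted p with that fold change in any comparison (limma), while 1925, 1417 and 275 genes had an unadjusted p of at most 0.05 in the ligation, insulin and INS + VD vs. CK comparisons. All VD libraries were below all CK libraries for 2 of the 7, against 8.27% of all genes, and all INS + VD libraries above all VD libraries for 3 of the 7, against 7.57%. The log2 fold change was below 0 for 6 of the 7 in the ligation comparison, against 51.3% of all genes, and above 0 for 7 of 7 in the insulin comparison, against 53.0%, of which the value of Gabrd was 0.0022. The median over the 7 was −0.93 for the ligation comparison and 1.24 for the insulin comparison, beside −0.020 and 0.042 over all genes. Without INS + VD replicate 2, VD replicate 2 and CK replicate 3 the medians over the 7 were −1.34 and 1.38, beside 0.028 and 0.0030. The 7 were chosen with earlier results of these data known, so these counts and medians are descriptions and not a test.

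The split of these calls over all genes moved with the scaling. Summed FPKM was 635759 in VD replicate 1, 548857 in VD replicate 2 and 453716 to 486754 in the rest. As deposited, 588 genes were higher and 738 lower for the ligation comparison, and 549 and 383 for the insulin comparison. With equal sums per library they were 377 and 1039, and 847 and 195, with medians over all genes of −0.19 and 0.22. With libraries centred on their medians they were 864 and 595, and 425 and 534, with medians of 0.16 and −0.12. The median over the 7 genes was −1.11 and 1.44 with equal sums and −0.75 and 1.08 with centring. Gabrb2 kept its direction and its side of the unadjusted threshold under both. Gabrb1 kept its direction, and with equal sums its difference from CK was −1.11 with an unadjusted limma p of 0.0318.

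For INS + VD vs. CK the log2 fold changes were 0.74 for Gabra2, 0.76 for Gabra3, 1.23 for Gabra5, 0.21 for Gabra4, 0.32 for Gabrb1, −0.40 for Gabrb2 and −2.06 for Gabrd. Their unadjusted limma p ran from 0.23 to 0.819. Their standard errors ran from 0.42 to 1.60. Without CK replicate 3 the values of Gabra2, Gabra3, Gabra5, Gabra4 and Gabrb1 turned to −0.15, −0.080, −0.20, −0.68 and −0.020.

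The genes also shared their size. The 3020 genes with the longest genomic span in the table, 63.9 to 6361 kb, include 6 of the 7, while Gabrd lies in bin 2 of 5 bins ordered by span. Of the genes in the longest bin, 12.2% were lower for the ligation comparison and 8.97% higher for the insulin comparison by the unadjusted rule, with medians of −0.37 and 0.41. Of those in bin 2, 2.09% were lower and 1.52% higher, with medians of 0.20 and −0.18. Across the bins, over genes with a mean of at least 1 FPKM, the median log2 difference of VD replicate 1 from the median of the other 8 libraries ran from 0.53 in the shortest bin to −0.95 in the longest. VD replicate 2 stood at −0.33 in the longest bin, and the other 7 libraries lay between 0.012 and 0.13 there. VD replicate 1 was the lowest of the 9 libraries for Gabra2, Gabra3, Gabrb1 and Gabrb2. The part of span in these results was not tested. Without VD replicate 1, and with VD replicate 2 kept, the ligation comparison gave −1.78 for Gabrb2 (unadjusted limma p of 0.00452) and −0.81 for Gabrb1 (p of 0.109).

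**Figure D3:**
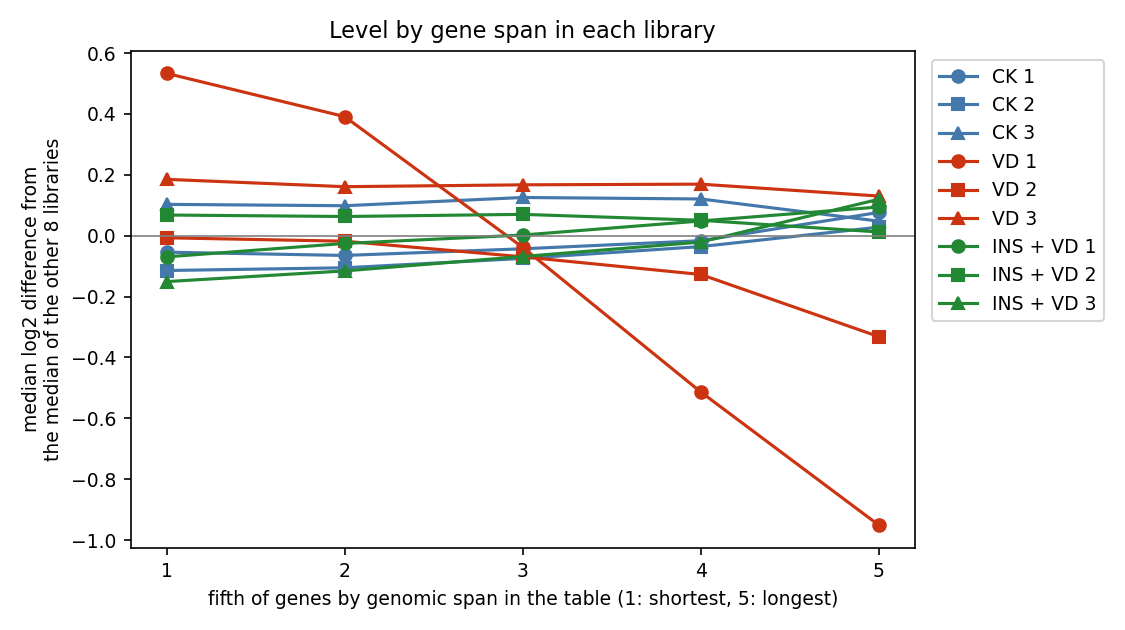
Median log2 difference of each library from the median of the other 8 libraries, for genes with a mean of at least 1 FPKM in 5 bins of genomic span from the shortest (1) to the longest (5); colours are groups and marker shapes are replicates. VD replicate 1 falls from 0.53 to −0.95, VD replicate 2 ends at −0.33, and the other 7 libraries end between 0.012 and 0.13; 6 of the 7 subunit genes are among the longest genes.

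Of 12 genes expressed by neurons in general, 2 were lower for the ligation comparison by the unadjusted rule and 0 were higher, with a median of −0.58. Over all genes 4.89% were lower and 3.89% higher. The mean log2(FPKM + 1) of these genes was 7.79, 7.60 and 6.96 in the CK libraries. It was 6.83, 7.16 and 7.05 for the VD libraries and 7.46, 7.45 and 7.56 for those with insulin. Relative to that mean, Gabrb2 was 2.39 lower in VD than in CK and 1.94 higher in INS + VD than in VD on the log2 scale (exact permutation p of 0.1 and 0.2, two-sided, n = 3, unadjusted). Gabrb1 was 0.49 lower and 0.77 higher, without overlap of the groups in either comparison (exact permutation p of 0.1 for both). With 3 libraries against 3, 0.1 is the smallest p this test can give. This scale was chosen after the data had been seen. The list of dentate granule cell genes summed to 67.2 to 118 FPKM in VD, below 213 to 486 in CK and 144 to 355 in INS + VD. Calb1 alone was at 460 FPKM in CK replicate 3, the library with the cerebellar genes. The groups overlapped for each of the 7 genes tested from this list, in both comparisons with VD. The list median was −1.01 for the ligation comparison, where C1ql2 stood at 0.59 and the rest of those tested below 0. The list of pyramidal cell genes of CA1 and CA3 summed to 509 to 669 FPKM in VD, above 121 to 333 in CK, and to 237 to 674 in INS + VD. Nnat alone held 383 to 483 FPKM in the VD libraries, and the list median was 0.13 for the ligation comparison. A list of 8 excitatory neuron genes had medians of −2.13 and 1.36 for the ligation and insulin comparisons, and its sums overlapped, at 75.4 to 4871 FPKM in VD, 526 to 3729 in CK and 208 to 3137 in INS + VD. Of the other cell types, a list of 8 microglia and macrophage genes summed to 179 to 332 FPKM in VD, above 58.8 to 140 in CK and 108 to 159 in INS + VD. Much of that sum was C1qa and C1qb, at 133 and 140 FPKM in VD replicate 1. For the ligation comparison P2ry12 stood at −0.46 and Cx3cr1 at −0.33, while the rest of the list was above 0. The part of these cell types in the results was not tested.

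Ratios within a library are nearly free of its scaling. The log2 ratio of Gabra5 to Gabra2 was −0.80, −0.62 and −3.67 in CK. The VD libraries had 2.89, −0.16 and 0.15, and those with insulin −0.49, −0.21 and −1.58. The 3 VD libraries had the highest ratios of the 9, although VD replicate 2 and INS + VD replicate 2 were almost level. The mean difference was 2.65 for the ligation comparison and −1.72 for the insulin comparison, each with an exact two-sided permutation p of 0.1, the smallest possible, and an adjusted p of 0.4 over the 8 ratio tests. Without VD replicate 1 these differences were 1.68 and −0.75, and without CK replicate 3 the first was 1.67. The log2 ratio of Gabrb2 to Gabrb1 was 2.14, 2.14 and 3.86 for the CK libraries, −1.85, 0.86 and 2.71 for VD, then 2.39, 2.26 and 1.20 with insulin, with overlap in both comparisons (exact p of 0.3 and 0.5, adjusted p of 0.686). The ratio of Gabra3 to Gabra2 lay between −0.76 and −0.034 in 8 libraries and at −3.60 in VD replicate 1. The ratio of Gabra4 to Gabrd ran from −5.65 in CK replicate 3 to 3.01 in VD replicate 2 and 2.26 in INS + VD replicate 2, and from −2.21 to 0.053 in the other 6. The latter 2 ratios gave an exact p of 0.5 to 0.7.

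**Figure D4:**
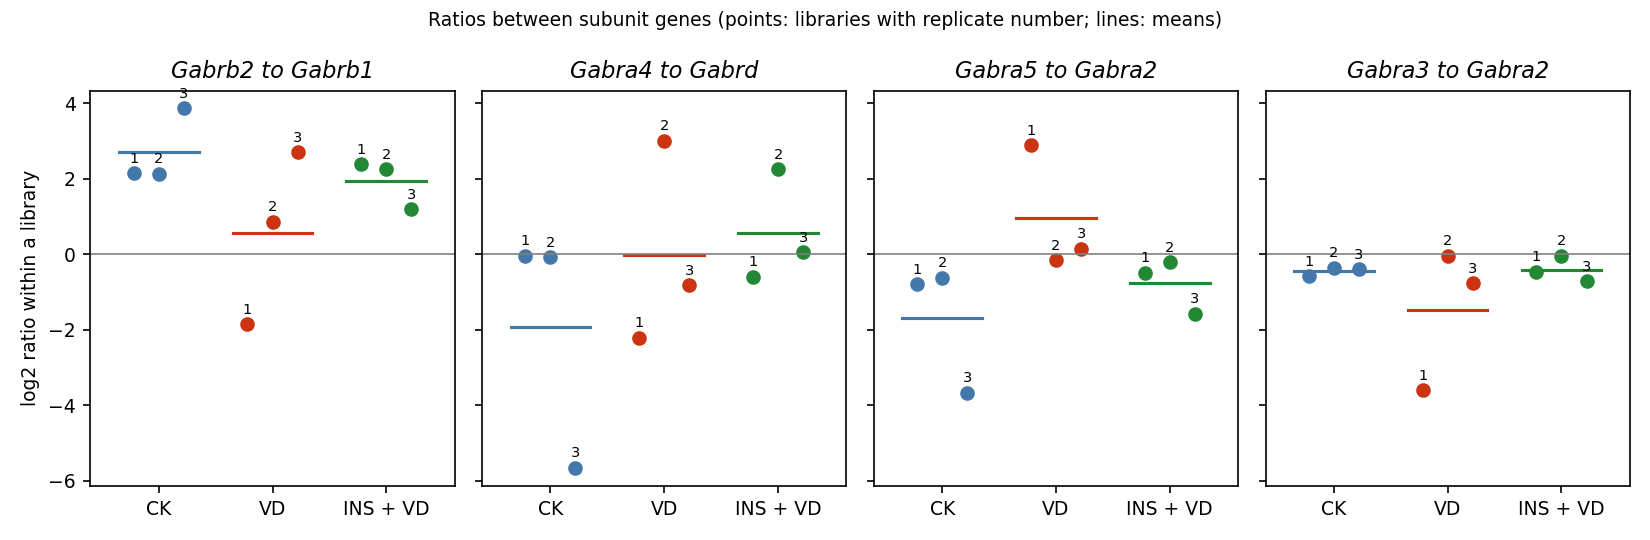
log2 ratios of FPKM between subunit genes within each library; points are libraries with their replicate number and lines are means of 3. Gabra5 to Gabra2 is higher in every VD library (−0.16 to 2.89) than in any CK or INS + VD library (−3.67 to −0.21), and Gabra4 to Gabrd is farthest out in CK replicate 3 (−5.65) and VD replicate 2 (3.01).

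As a share of the summed FPKM of the 4 alpha genes, Gabra5 made up 19.4%, 19.7% and 2.96% in CK. Its shares were 49.9%, 28.6% and 33.7% in the VD libraries and 21.1%, 27.0% and 13.9% with insulin. Its lowest VD share was above its highest share in the other groups, and no test was made of the shares. Gabra2 held 29.6% to 41.6% in 8 libraries and 6.71% in VD replicate 1. Gabra3 held 17.9% to 31.2% in the same 8 and 0.531% in VD replicate 1. Gabra4 held 42.9% in VD replicate 1 but 8.26% in VD replicate 2 and 11.4% in INS + VD replicate 2. The sum itself was 149, 135 and 16.6 FPKM for the CK libraries, 45.3, 45.8 and 118 FPKM for VD, and 117, 82.5 and 181 FPKM with insulin. Gabra5 was the largest of the 4 in VD replicates 1 and 3, the libraries with the most olfactory bulb signal, and Gabra2 in the other 7.

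**Figure D5:**
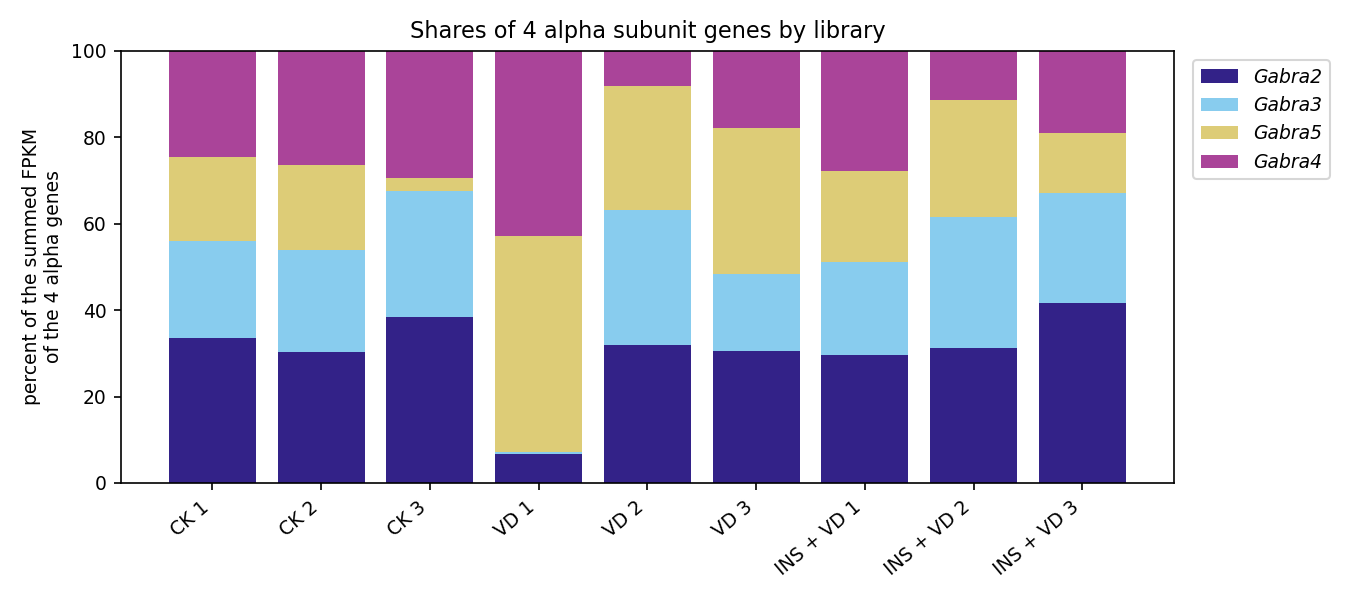
Share in percent of each alpha gene in the summed FPKM of Gabra2, Gabra3, Gabra5 and Gabra4, stacked to 100 for each of the 9 libraries. The Gabra5 share is 28.6% to 49.9% in the VD libraries and 2.96% to 27.0% in the others.

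By group mean, the order of levels in CK was Gabrd, Gabrb2, Gabra2, Gabra4, Gabra3, Gabra5 and Gabrb1. Neighbours in this order differed by less than the larger of their SDs, apart from Gabrb2 and Gabra2. In VD it was Gabrd, Gabra5, Gabra2, Gabra4, Gabrb2, Gabra3 and Gabrb1, with no neighbours apart by more than the larger SD. In INS + VD it was Gabra2, Gabrb2, Gabra3, Gabrd, Gabra4, Gabra5 and Gabrb1, and only Gabrb1 stood apart from its neighbour by more than the larger SD. CK replicates 1 and 2 had the same order of all 7 genes.

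Gabrg3, which encodes a gamma subunit and lies beside Gabra5, had 6.51, 4.87 and 0.971 FPKM in the CK libraries. The VD libraries had 0, 1.32 and 2.50 FPKM, and the insulin libraries 3.32, 4.15 and 5.25 FPKM. Every library with insulin was above every VD library, whereas CK replicate 3 lay within VD. Its log2 fold change was −1.14 for the ligation comparison (unadjusted p of 0.0824, adjusted p of 0.425, limma) and 1.37 for the insulin comparison (unadjusted p of 0.0437, adjusted p of 0.512, limma).

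All 20 genes of receptor scaffolds and trafficking were tested. For the ligation comparison 1 was higher and 1 lower by the unadjusted rule, and for the insulin comparison 2 were higher and 0 lower, with medians of −0.23 and 0.43. Over all genes 3.89% were higher and 4.89% lower for the ligation comparison, and 3.64% and 2.54% for the insulin comparison. Nlgn2, the adhesion protein of inhibitory synapses, was the lower gene at −1.31 and was higher for the insulin comparison at 1.33. Its VD replicates 1, 2 and 3 had 11.9, 26.3 and 71.3 FPKM, and its dependence on replicate 1 was not tested. Hap1, which takes part in the return of receptors to the surface, was the higher gene at 1.65 and stood at 0.025 for the insulin comparison. The motor Kif5a was higher for the insulin comparison at 1.15. The adaptor Trak1 stood at −0.79 and 0.94 and the fusion ATPase Nsf at −0.68 and 0.83, under the fold change minimum. Gphn, the scaffold gephyrin itself, stood at −0.30 and −0.044, and is named here after its values were seen.

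Of 9 genes of GABA synthesis, vesicle loading, uptake and breakdown 8 were tested, and 1 passed the unadjusted rule in each comparison with VD and 0 for INS + VD vs. CK. Over all genes 8.78% passed for the ligation comparison, 6.17% for the insulin comparison and 0.940% for INS + VD vs. CK. The gene of this list that passed was the GABA transporter Slc6a13, which is found at the brain's coverings and vessels. The CK libraries had 3.22, 4.53 and 3.66 FPKM, the VD libraries 16.6, 8.36 and 19.0 FPKM, and the insulin libraries 3.36, 3.77 and 7.95 FPKM. Its log2 fold change was 1.64 for the ligation comparison and −1.38 for the insulin comparison (adjusted p of 0.205 and 0.512, limma), against the direction of the beta genes. The vesicular GABA transporter Slc32a1 stood at 0.68 and −0.24, the GABA transaminase Abat at −0.88 and 1.14 and the synthetic enzyme Gad2 at 0.011 and 0.55. The list medians were 0.20 and 0.34.

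Of 7 chloride cotransporter and kinase genes tested, 2 were lower for the ligation comparison and the same 2 were higher for the insulin comparison. Over all genes 4.89% were lower for the first and 3.64% higher for the second by the unadjusted rule. Slc12a5 encodes KCC2, which keeps neuronal chloride low so that GABA inhibits. The CK libraries had 127, 129 and 141 FPKM, the VD libraries 6.81, 47.8 and 92.9 FPKM, and the insulin libraries 114, 121 and 158 FPKM, without overlap of VD with either group. Of all genes, 8.27% had all VD libraries below all CK libraries, and 7.57% had all INS + VD libraries above all VD libraries. The log2 fold changes of Slc12a5 were −2.02 and 1.99 (adjusted p of 0.351 and 0.512, limma). VD replicate 1 was its lowest library, and of single genes only the 7 members were refitted with libraries left out. The kinase Wnk2 had −1.32 and 1.06. Wnk3 stood at −0.49 and 1.10 and Stk39 at 0.71 and −0.38, and neither passed. The list medians were −0.041 and 0.41.

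The genes whose levels followed each subunit most closely were found from the mean absolute difference of log2(FPKM + 1), centred on each gene's mean over the 9 libraries, among 13572 genes. All genes share the same 9 libraries, so these are descriptions. For Gabra2 they were Pdzd2 (0.22) and Rap2b (0.24), for Gabra3 Pcdh7 (0.17) and Dok6 (0.24), and for Gabra4 Fam49a (0.20) and Mast3 (0.21). For Gabrb1 they were Prkar1b, a regulatory subunit of protein kinase A (0.19), and Tmem178b (0.21), and for Gabrb2 Plcxd2 (0.26) and the receptor gene Gpr158 (0.27). Gabra5 had Crhbp, the binding protein of corticotropin-releasing hormone (0.33), and Fam43b (0.34). The nearest genes to Gabrd were much farther, the potassium channel gene Kcnh3 at 0.78 and AABR07001432.1 at 0.85. Among the 7 themselves Gabra2 and Gabra3 were closest at 0.34, and each was among the 19 genes nearest to the other. Gabrb1 and Gabrb2, whose VD libraries were lowest for both, differed by 0.97.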

How the data were processed

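Hippocampal RNA of 9 samples, 3 per group, had been enriched for polyadenylated RNA and sequenced on an Illumina instrument. The deposited unit is FPKM per gene, which the authors made after alignment with HISAT2. The counting program, its annotation and versions are not given in the sources used here. The submitters' processing notes name a mouse build but the gene identifiers are rat, and positions are therefore printed with no build. Genes reaching 0.5 FPKM in 3 or more of the 9 libraries (15099) entered 1 limma model (limma 3.58.1, R 4.3.3) of log2(FPKM + 1), a scale that understates changes of low genes, with the 3 groups, no replicate block and an intensity trend. Adjusted p-values are those of Benjamini and Hochberg across the 15099 genes. The adjusted rule required an adjusted p of 0.05 or less and a log2 fold change of 1 or more in size, and the unadjusted rule applied the same cut-offs to the unadjusted p. Both comparisons with VD share its libraries, and both with CK share those of CK. Ratios were log2 of FPKM + 0.01, compared by exact permutation in Python 3.11.15 and adjusted over 8 tests. Promoters came from RefSeq (GRCr8).

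The members and the gene lists were chosen with earlier results of these data known. Beside the 7 members, the genes named are up to 3 per list and comparison with the smallest unadjusted p, the 2 genes most like each member among those averaging 1 FPKM or more, and up to 2 defining genes per cell type or region. Some genes that this rule names are not reported here. The limma step was run on simulated data for VD vs. CK, with independent noise for each gene. The simulation held no tissue differences between libraries, so it cannot show how the procedure handles them. Alternatives changed the pseudocount, filter, scaling, prior trend, weights, libraries fitted and replicate block, and left out each library. Leaving out 3 libraries together and scaling to neuron genes were chosen after seeing the data.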

Additional observations from a re-analysis of the deposited data

How the results depend on the processing

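Here the ligation comparison is VD vs. CK, the insulin comparison INS + VD vs. VD, and the outer comparison INS + VD vs. CK. No member passed the adjusted p under any setting with limma, the smallest being 0.119 without VD replicate 3. With each library left out in turn, Gabrb2 ran from −3.76 to −1.78 (ligation) and from 1.38 to 3.36 (insulin), and Gabrb1 from −1.26 to −0.73 and from 0.90 to 1.53. Members passing the unadjusted rule numbered 1 to 2 and 1 to 4. Genes passing the adjusted rule numbered 0 to 28 and 0 to 20, both highest without VD replicate 2, and genes passing the unadjusted rule 918 to 2557, 391 to 2233 and, in the outer, 90 to 246, the first pair highest without VD replicate 3. Directions turned in these ranges, with the cause not tested: Gabra5 −0.27 to 1.89 and Gabra4 −1.52 to 0.081 (ligation), Gabra5 −0.31 to 0.46 and Gabrd −1.78 to 1.27 (insulin), and in the outer Gabra2 −0.15 to 1.25, Gabra3 −0.080 to 1.20, Gabra5 −0.20 to 1.97, Gabra4 −0.68 to 0.79 and Gabrb1 −0.029 to 0.60. Of the ratios, Gabra4 to Gabrd ran from −0.52 to 2.09 (insulin) and Gabra3 to Gabra2 from −1.74 to 0.044 (ligation) and −0.0033 to 1.78 (insulin). With array weights Gabra5 was −0.27 (ligation), and in the outer Gabra2 was −0.027, Gabra3 −0.048, Gabra5 −0.0063, Gabra4 −0.28 and Gabrb1 −0.15. Members passing the unadjusted rule were then 3 and 1. Of the 15099 genes, 579 were higher and 866 lower by it (ligation), and 530 and 260 (insulin). In the outer 8 genes passed the adjusted and 223 the unadjusted rule with these weights. For the insulin comparison Gabra5 and Gabrd were −0.090 and −0.16 with median centring and −0.40 and −0.47 relative to neuron genes. Without INS + VD replicate 2, VD replicate 2 and CK replicate 3, Gabrd was 0.61 and Gabra4 to Gabrd −1.45 (ligation), Gabra5 and Gabrd −0.25 and −0.50 (insulin), and Gabra5, Gabra4 and Gabrd −0.14, −0.10 and 0.11 in the outer. Then 2 genes passed the adjusted rule in each comparison with VD, 1 member and 1513 genes the unadjusted rule (insulin), and 76 genes in the outer. A pseudocount of 0.1 gave 2 members (ligation), beside 764 genes higher and 726 lower of 15099, and 234 genes (outer). Equal sums gave 2 members (ligation), beside 377 genes higher and 1039 lower.

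Same-numbered libraries correlated from −0.317 to 0.383 after removal of group means, so the numbers were not taken to pair samples. With a replicate block the unadjusted rule gave 575 genes higher and 809 lower (ligation), 590 and 337 (insulin) and 121 and 66 (outer), and 1, 2 and 0 members. The number of mapped reads is not known, and 3 libraries per group limit the precision.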
